A study of Mus musculus with 6 samples.

Results

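The genes examined here encode succinate dehydrogenase (complex II), the cytochrome bc1 complex (complex III), cytochrome c and the ATP synthase, read by RNA-seq from inguinal white adipose tissue (iWAT) of cold and thermoneutral mice. They were taken by their symbols, as the 4 genes Sdha to Sdhd, every symbol that starts with Uqcr or Atp5, and Cyc1, Cycs and Atpif1, after 1 name marked as a pseudogene was dropped. This gave 32 genes of 22481 symbols in the table, namely 4 of complex II, 9 of complex III, 1 for cytochrome c and 18 for the ATP synthase. All 32 passed the filter on low values and are among the 11629 genes tested.

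The cold group held 3 iWAT samples from mice kept at 4 °C and the thermoneutral group 3 samples from mice kept at 30 °C, each for 7 days. The mice were males of the C57BL/6 strain by the labels, and C57BL/6J and 8 weeks of age by the methods of the study. Neither group has a transgene or drug in its labels, and these do not say whether a sample is 1 mouse or a pool. With no statement on separate animals, the p-values measure the spread between these samples, which may be technical. Each sample had an estimated 15262077 to 23636744 sequenced fragments assigned to genes, and values are given as scaled counts, which are fragment counts divided by a size factor for each sample.

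Complex II oxidises succinate to fumarate in the citric acid cycle and hands the electrons to ubiquinone, and complex III passes them on to cytochrome c, a small soluble protein that carries them to complex IV. The ATP synthase uses the proton gradient that the chain builds to make ATP, and in thermogenic adipocytes uncoupling protein 1 (Ucp1) lets protons back without ATP synthesis. Brown adipose tissue of rodents is known for a large respiratory chain beside little ATP synthase, and the gene Atp5g1, 1 of 3 that encode the same mature c subunit of the membrane ring, is known to be weakly expressed there.

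The labels name the source as adipocytes and the material as fat tissue, and markers of both adipocytes and other cells were read. All 5 thermogenic markers rose in the cold, with sums of 144858 to 197549 scaled counts in the cold group and 3056 to 3259 in the thermoneutral group. The macrophage markers (4 of 4 tested fell, from 4562 to 6103 down to 1266 to 1410) and the fibroblast markers (5 of 5 fell, from 54148 to 124424 down to 22718 to 24365) moved the other way, and 2 of 5 general adipocyte markers and 1 of 3 endothelial markers fell, where 35.2% of all genes tested were called lower. After each sample was centred on its median gene the thermogenic, macrophage and fibroblast counts were as before, 1 adipocyte marker rose and 1 fell, and no endothelial marker was called. Thermoneutral replicate 1 stood apart, with a summed 25265 scaled counts of 4 epithelial markers against 6.23 to 48.9 in the other samples. Its sum of the 5 general adipocyte markers was 210151, against 404645 and 407816.5 in thermoneutral replicates 2 and 3. Its fibroblast and endothelial sums were also the lowest of that group. Cold replicate 2 held 214092 scaled counts of 8 skeletal muscle markers against 326 in the lowest cold sample and 3222 to 10232 in the thermoneutral samples. In bulk tissue, more cells of a type and more RNA per cell cannot be told apart, and the part of these cell types in the results was not tested.

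Transcripts of complexes II and III and of cytochrome c were higher in the cold without exception, while the ATP synthase was divided. By limma on log2 scaled counts with an adjusted p under 0.05, 26 of the 32 genes rose, 0 fell and 6 did not pass. Of all genes tested, 6.25% were called higher and 35.2% lower, so that the 26 of 32 stand beside a small share of rises among all genes. The median log2 fold change was 1.29 over the 32 genes and -0.54 over all genes tested. After every sample was centred on its median gene, 27 of the 32 rose, beside 10.3% of all genes called higher and 5.41% lower. Together the 32 genes took 0.931% to 0.933% of all scaled counts at thermoneutrality and 2.46% to 3.17% in the cold.

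**Figure D1:**
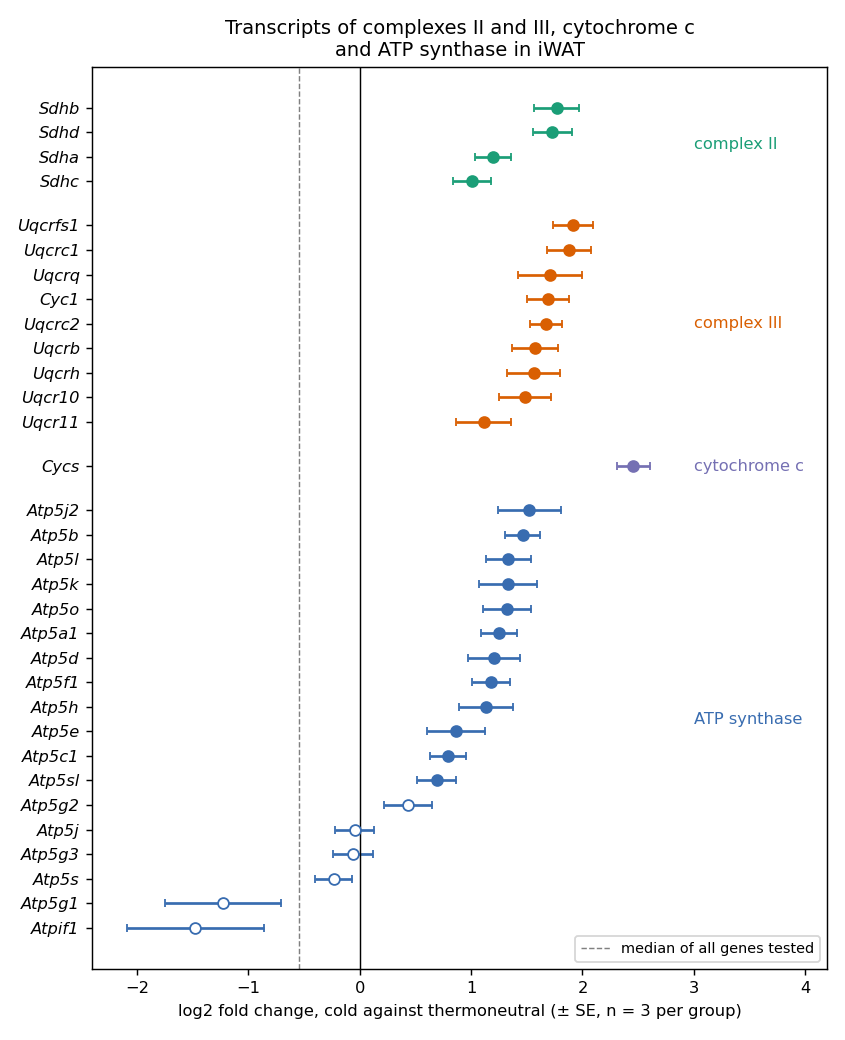
Log2 fold change of the 32 genes in cold against thermoneutral iWAT with its standard error (n = 3 per group), grouped by complex. Filled points passed the test, open points did not, and the dashed line is the median of all genes tested (-0.54). All genes of complexes II and III and Cycs lie to the right of 0, and the 6 open points are ATP synthase genes.

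By the thresholds stated for the study, an unadjusted p under 0.05 and a fold of at least 2, 23 of the 32 were higher and 1, Atpif1, was lower, beside 4.21% of all genes higher and 18.6% lower. In 27 of the 32 genes every cold sample lay above every thermoneutral sample, which held for 9.1% of all genes tested. In 2 of the 32, Atp5g1 and Atpif1, every cold sample lay below, which held for 52.1% of all genes, and in the other 3, Atp5g3, Atp5j and Atp5s, the groups overlapped.

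The 4 genes of complex II rose, with a median log2 fold change of 1.47. Sdha encodes the flavoprotein that binds and oxidises succinate (chr13:74322254-74350280, minus strand in GRCm38), and it had 27601, 29319.9 and 30978 scaled counts in cold replicates 1, 2 and 3 and 11217, 13644 and 13524 in thermoneutral replicates 1, 2 and 3. Its lowest cold sample lay above the highest thermoneutral sample, and its log2 fold change was 1.20 ± 0.16 (SE, n = 3 per group, adjusted p = 0.0061). Sdhb, the iron-sulfur protein that passes the electrons on (chr4:140961203-140979193, plus strand), had 20579.9, 15594 and 15284 scaled counts in cold replicates 1, 2 and 3 and 4148, 5432 and 5501 in thermoneutral replicates 1, 2 and 3. It was highest in cold replicate 1 and lowest in thermoneutral replicate 1, with a log2 fold change of 1.77 ± 0.20 (SE, n = 3 per group, adjusted p = 0.0044).

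Sdhc and Sdhd encode the membrane anchors that hold the haem and the ubiquinone site. Sdhd had 14254, 11695 and 12061 scaled counts in cold replicates 1, 2 and 3 and 3269, 4056 and 4146 in thermoneutral replicates 1, 2 and 3, and its log2 fold change of 1.73 ± 0.18 (SE, n = 3 per group, adjusted p = 0.0033) was close to that of Sdhb. Sdhc had 8759, 7320.5 and 7328 scaled counts in cold replicates 1, 2 and 3 and 3437, 4109 and 4099 in thermoneutral replicates 1, 2 and 3. Its log2 fold change was the smallest of the 4, at 1.01 ± 0.17 (SE, n = 3 per group, adjusted p = 0.0095), with no overlap of the groups, and on FPKM it was 0.79. The 2 genes with the larger changes, Sdhb and Sdhd, were thus an electron carrier and an anchor, and the 95% intervals of the changes of all 4 overlapped (0.81 to 1.59 for Sdha, 1.28 to 2.26 for Sdhb, 0.60 to 1.41 for Sdhc and 1.30 to 2.16 for Sdhd).

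All 9 genes of complex III rose as well, with log2 fold changes from 1.11 to 1.91 and a median of 1.67. The largest was in Uqcrfs1, the Rieske iron-sulfur protein (chr13:30540308-30545362, minus strand), which had 20266, 14915 and 15810.5 scaled counts in cold replicates 1, 2 and 3 and 4253, 4542 and 4619 in thermoneutral replicates 1, 2 and 3. The groups were far apart in every replicate, and the log2 fold change was 1.91 ± 0.18 (SE, n = 3 per group, adjusted p = 0.0025). Cyc1, the cytochrome c1 that hands electrons to cytochrome c, had 20617, 14791 and 14799.6 scaled counts in cold replicates 1, 2 and 3 and 4949.9, 4958 and 5448 in thermoneutral replicates 1, 2 and 3, and its log2 fold change was 1.69 ± 0.19 (SE, n = 3 per group, adjusted p = 0.0042).

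The core proteins Uqcrc1 and Uqcrc2, which form the large matrix domain of the complex, had log2 fold changes of 1.88 and 1.67. Among the small subunits without redox groups the changes were 1.71 for Uqcrq, 1.57 for Uqcrb, 1.56 for Uqcrh (the hinge protein by which cytochrome c1 meets cytochrome c) and 1.49 for Uqcr10. The smallest change was in Uqcr11, another small subunit, which had 9989, 6008 and 5927 scaled counts in cold replicates 1, 2 and 3 and 2919.9, 3339 and 3611 in thermoneutral replicates 1, 2 and 3. Cold replicates 2 and 3 were close to each other and well under cold replicate 1, all 3 lay above the thermoneutral samples, and the log2 fold change was 1.11 ± 0.25 (SE, n = 3 per group, adjusted p = 0.018). Uqcr11 missed the threshold when thermoneutral replicate 2 (adjusted p = 0.06) or 3 (adjusted p = 0.056) was left out.

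Cycs, which encodes the somatic cytochrome c (chr6:50562563-50566538, minus strand), had the largest change of the 32 genes. It had 26591, 23672 and 23721 scaled counts in cold replicates 1, 2 and 3 and 4558, 4604 and 4320.2 in thermoneutral replicates 1, 2 and 3. The samples of each group were close together, and the log2 fold change was 2.45 ± 0.15 (SE, n = 3 per group, adjusted p = 0.00084), about 5.48-fold. Cycs has processed copies elsewhere in the genome, 24.7% of its 100-base windows are shared with other annotated genes, and the copy Gm10053 was listed at 3.44% to 4.12% of the Cycs value with a log2 fold change of 2.66, so that a few of its reads may be split. The testis form Cyct was listed at 0 in all 6 samples.

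Cyc1 and Cycs are successive carriers, and per length their levels drew closer in the cold. The ratio of Cyc1 to Cycs in FPKM was 1.40, 1.32 and 1.29 in the cold samples and 2.07, 1.73 and 2.18 in the thermoneutral samples. The groups did not overlap, Cyc1 was the higher of the pair in FPKM in all 6 samples, and this ratio was not tested. In scaled counts, which are not divided by length, Cycs was the higher in every cold sample (23672 to 26591 against 14791 to 20617). At thermoneutrality Cyc1 was the higher in scaled counts (4950 to 5448 against 4320 to 4604), so the rank depends on the measure.

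The ATP synthase held all 6 genes that did not pass. Of its 18 genes 12 rose and 0 fell, with log2 fold changes from -1.48 to 1.52 around a median of 1.00, and 7 rose without thermoneutral replicate 3. The rises covered the catalytic head, most of the stalk and the small membrane subunits, and the genes that did not pass were the 3 that encode the c ring, Atp5j of the stalk, Atp5s and the inhibitor Atpif1.

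**Figure D2:**
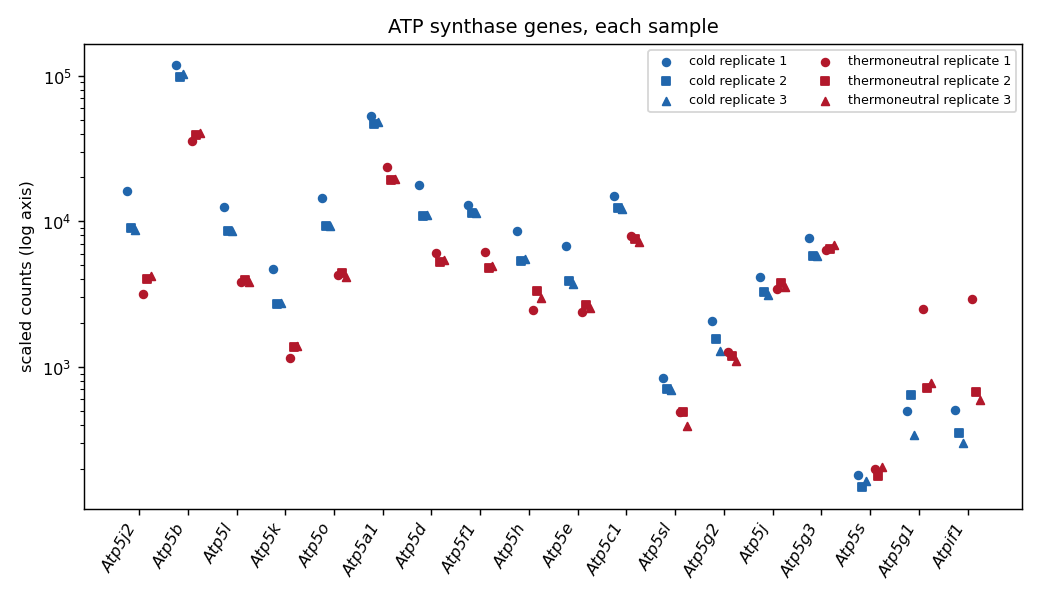
Scaled counts of the 18 ATP synthase genes in each of the 6 samples, on a log axis, with cold samples in blue, thermoneutral samples in red and a marker for each replicate. From Atp5j2 to Atp5sl all cold samples lie above all thermoneutral samples, and Atp5g1 and Atpif1 lie at 2515 and 2905 in thermoneutral replicate 1, far above their other samples.

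All 5 genes of the F1 head rose. Atp5b, the catalytic beta subunit (chr10:128083273-128090391, plus strand), had 118305, 98650.3 and 102511 scaled counts in cold replicates 1, 2 and 3 and 35836, 39061 and 40708 in thermoneutral replicates 1, 2 and 3. The groups did not overlap, and its log2 fold change was 1.46 ± 0.16 (SE, n = 3 per group, adjusted p = 0.0039). Per length it was the most abundant of the 32 transcripts in both groups, at 5899, 3614 and 3738 FPKM in the cold samples and 1281, 1446 and 1445 FPKM in the thermoneutral samples. The alpha subunit gene Atp5a1, the partner of Atp5b in the head, had a log2 fold change of 1.25, and the central stalk genes were at 1.20 for Atp5d (delta), 0.86 for Atp5e (epsilon) and 0.79 for Atp5c1 (gamma). Atp5d and Atp5c1 did not pass without thermoneutral replicate 2 (adjusted p = 0.053 and 0.058) or 3 (0.052 and 0.063). Atp5e did not pass in 5 of the 6 fits that left out 1 sample, all but that without cold replicate 1 (adjusted p = 0.057 to 0.1 in the 5).

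The 3 small membrane subunits rose together, and 2 further small subunits whose names fall outside the rule, Usmg5 and 2010107E04Rik, had log2 fold changes of 1.35 and 1.44. Atp5j2, the f subunit, had the largest change of the ATP synthase and 16114, 9058 and 8729.8 scaled counts in cold replicates 1, 2 and 3 and 3169.9, 4010.4 and 4219 in thermoneutral replicates 1, 2 and 3. Its log2 fold change was 1.52 ± 0.28 (SE, n = 3 per group, adjusted p = 0.012), with cold replicate 1 well above the other cold samples. Atp5l (g subunit) and Atp5k (e subunit), which serve in dimers of the enzyme, both had a log2 fold change of 1.33.

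In the peripheral stalk, which holds the head against the turning rotor, 3 of 4 genes rose. Their log2 fold changes were 1.32 for Atp5o (the oligomycin sensitivity conferring protein), 1.18 for Atp5f1 (subunit b) and 1.13 for Atp5h (subunit d), which did not pass without thermoneutral replicate 3 (adjusted p = 0.057). The other was Atp5j, which encodes coupling factor 6 (chr16:84827866-84835625, minus strand) and had 4134, 3256 and 3140.5 scaled counts in cold replicates 1, 2 and 3 and 3429, 3800.4 and 3561 in thermoneutral replicates 1, 2 and 3. The groups overlapped, and the log2 fold change was -0.04 ± 0.17 (SE, n = 3 per group, adjusted p = 0.84) with a 95% interval from -0.46 to 0.37. That interval lies under the lower bound of 0.56 for Atp5h, the smallest of the other 3. The Atp5j gene overlaps Gabpa on the other strand, a transcription factor subunit at 602 to 1080 scaled counts, and without strand the reads of the overlap cannot be told apart. The interval that the table lists for Atp5j is 151 times as long as the gene, and in 5 of the 32 genes (Atp5j, Atp5d, Uqcrh, Atp5o and Uqcrb) it is over 20 times as long, so that what else these values may cover is not known.

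The 3 genes of subunit c did not pass. Their mature products are identical and the proteins differ in the leader that directs them into mitochondria, so the genes add up to 1 pool. Atp5g3 (chr2:73908447-73911326, minus strand) had 7629.9, 5775 and 5756 scaled counts in cold replicates 1, 2 and 3 and 6388, 6493 and 6919 in thermoneutral replicates 1, 2 and 3. Cold replicate 1 was the highest of all and the other cold samples the lowest, and the log2 fold change was -0.06 ± 0.18 (SE, n = 3 per group, adjusted p = 0.79) with a 95% interval from -0.48 to 0.36.

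Atp5g2 (chr15:102662864-102672352, minus strand) had 2069, 1556 and 1284 scaled counts in cold replicates 1, 2 and 3 and 1274, 1191 and 1101 in thermoneutral replicates 1, 2 and 3. Its cold samples lay above its thermoneutral samples by a narrow margin, with a log2 fold change of 0.44 ± 0.21 (SE, n = 3 per group, adjusted p = 0.14) and a 95% interval from -0.08 to 0.95. It passed after median centring (0.97, adjusted p = 0.041) and after quantile normalization (0.80, adjusted p = 0.048). The copy Gm10175 holds 86.4% of its 100-base windows, so that reads could be split between them, and was listed at 0.607% to 1.14% of Atp5g2 with a log2 fold change of 0.04.

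Atp5g1 (chr11:96068852-96075670, minus strand) had 496, 641 and 339.6 scaled counts in cold replicates 1, 2 and 3 and 2515, 713 and 778 in thermoneutral replicates 1, 2 and 3. All cold samples lay below all thermoneutral samples, and thermoneutral replicate 1 was 3.37 times the mean of the other thermoneutral samples. Its log2 fold change was -1.23 ± 0.52 (SE, n = 3 per group, adjusted p = 0.096), with a 95% interval from -2.48 to 0.02, and without thermoneutral replicate 1 it was -0.64 (adjusted p = 0.105). Without both thermoneutral replicate 1 and cold replicate 2, the samples with epithelial and muscle markers, it was -0.86 and passed (adjusted p = 0.04). In that fit 4835 of the 11629 genes tested were called lower, against 4097 with all 6 samples, so a call of a fall was common there. After median centring of all 6 samples it was -0.70 (adjusted p = 0.41), and after quantile normalization -0.74 (adjusted p = 0.39).

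Summed over the 3 genes, subunit c transcripts stood at 989, 779 and 709 FPKM in the cold samples and 972, 781 and 802 FPKM in the thermoneutral samples, and the groups overlapped. The ratio of Atp5b to this sum was 5.96, 4.64 and 5.27 in the cold samples and 1.32, 1.85 and 1.80 in the thermoneutral samples. Every cold sample was above every thermoneutral sample in this untested ratio. As a ratio within a sample it does not depend on how the samples were scaled. It does depend on the transcript lengths used for FPKM. Atp5b in cold replicate 1 was at 5899 FPKM against 3614 and 3738 in cold replicates 2 and 3. Its scaled counts lay closer together (118305 against 98650.3 and 102511), so the 5.96 of cold replicate 1 may be high for that reason.

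Within the pool, Atp5g1 made up 4.99%, 8.09% and 4.81% of the subunit c transcripts in the cold samples and 25.8%, 8.96% and 9.12% in the thermoneutral samples. All cold samples were lower, cold replicate 2 only just, with a difference in means of -8.67 percentage points. The exact two-sided permutation test gave p = 0.1, below which groups of 3 cannot go, and the difference was -3.08 percentage points without thermoneutral replicate 1. This was 1 of 3 ratios tested, and the p of each was 0.1 also after adjustment over the 3.

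**Figure D3:**
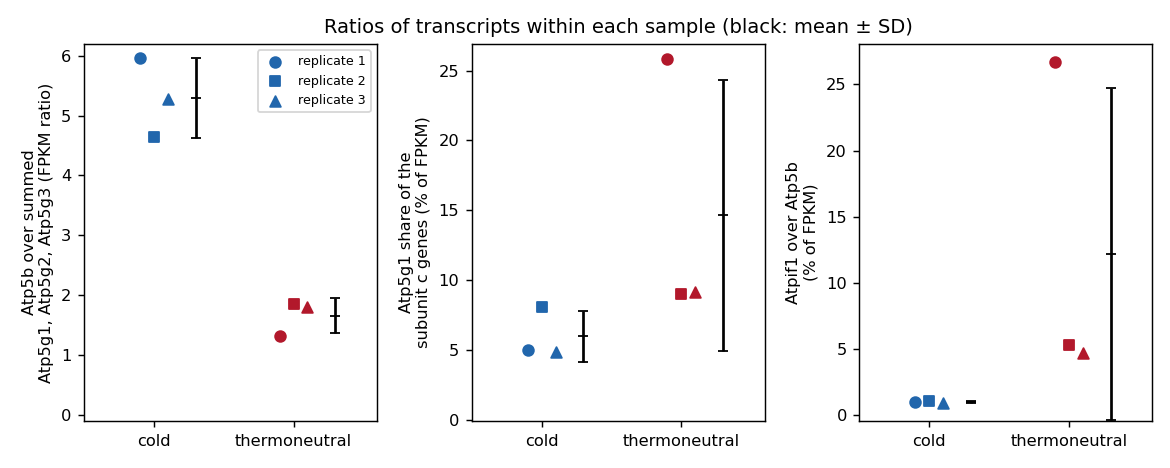
Ratios of FPKM values within each of the 6 samples, with cold in blue, thermoneutral in red, and the mean ± SD (n = 3) in black. Atp5b over the summed subunit c genes (left) is 4.64 to 5.96 in the cold and 1.32 to 1.85 at thermoneutrality, and the Atp5g1 share (middle) and Atpif1 over Atp5b (right) are highest in thermoneutral replicate 1, at 25.8% and 26.7%.

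Atpif1 encodes the inhibitor that keeps the ATP synthase from running backwards and splitting ATP (chr4:132530555-132533659, minus strand). It had 503, 354 and 300.1 scaled counts in cold replicates 1, 2 and 3 and 2905, 672 and 593 in thermoneutral replicates 1, 2 and 3. All cold samples were lower than all thermoneutral samples, and thermoneutral replicate 1 was 4.59 times the mean of the other thermoneutral samples, a ratio of at least 3 that 417 of the 11629 genes tested (3.59%) reached. The log2 fold change was -1.48 ± 0.61 (SE, n = 3 per group, adjusted p = 0.091), with a 95% interval from -2.95 to -0.01, and was -0.74 without thermoneutral replicate 1 (adjusted p = 0.052). Without both thermoneutral replicate 1 and cold replicate 2 it was -0.70 (adjusted p = 0.102). It was -0.94 after median centring (adjusted p = 0.35) and -0.98 after quantile normalization (adjusted p = 0.35), and in each of these other settings it did not reach a fold of 2. In the other 30 genes thermoneutral replicate 1 stood at 0.741 to 1.26 times the other thermoneutral samples.

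Against Atp5b, Atpif1 stood at 0.998%, 1.12% and 0.931% in FPKM in the cold samples and at 26.7%, 5.28% and 4.68% in the thermoneutral samples. The cold samples lay well below, also beside thermoneutral replicates 2 and 3 alone. The log2 ratio differed by -3.10 between the groups (exact permutation test, p = 0.1, two-sided) and by -2.29 without thermoneutral replicate 1.

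The last genes with an Atp5 name are not subunits of the core enzyme. Atp5s had 182, 149 and 164 scaled counts in cold replicates 1, 2 and 3 and 199, 177 and 206 in thermoneutral replicates 1, 2 and 3. These values are low, the groups overlapped, and the log2 fold change was -0.24 ± 0.16 (SE, n = 3 per group, adjusted p = 0.26) with a 95% interval from -0.62 to 0.15. Atp5sl, a related gene known for a role in complex I assembly, had a log2 fold change of 0.69 and passed the test, but lost its call in 4 of the 6 fits that left out 1 sample, those without replicate 2 or 3 of either group (adjusted p = 0.057 to 0.095), nor with no filter on low values (adjusted p = 0.0504).

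Between complexes, the dehydrogenase gene Sdha was set against Atp5b, a catalytic subunit each. Sdha stood at 8.11%, 13.3% and 13.6% of Atp5b in FPKM in the cold samples and at 14.9%, 16.1% and 15.5% in the thermoneutral samples. The groups did not overlap, cold replicate 1 was the lowest, and the log2 ratio differed by -0.44 (exact permutation test, p = 0.1, two-sided), by -0.20 without cold replicate 1 and by -0.26 on scaled counts. Atp5b in cold replicate 1 was 1.18 times the mean of the other cold samples in scaled counts, while in FPKM it stood further from them (5899 against 3614 and 3738).

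Cold replicate 1 was high for these genes in a way that followed the length of the principal transcript. Its value over the mean of cold replicates 2 and 3 had a median of 1.57 in the 14 genes with a principal transcript under 1000 bases (1.29 to 1.81) and of 1.19 in the 18 longer ones (0.915 to 1.78), beside 0.944 over all genes tested. Over the 32 genes Spearman's rho between this ratio and length was -0.77, a description of 1 library in which all points share their depth and preparation. The principal transcript is not always the one quantified. In cold replicate 1 Uqcrq, of 1521 bases, had 20413 scaled counts at 2787 FPKM, and Cyc1, of 1520 bases, had 20617 at 887 FPKM. Uqcrq, which gave the 1.78, was thus quantified as shorter, and so was Atp5g1 (4715 bases), so the classes and rho are approximate. Without cold replicate 1 the median log2 fold change went from 1.23 to 0.99 in the shorter class and from 1.36 to 1.31 in the longer, and the number of the 32 genes that rose was again 26.

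**Figure D4:**
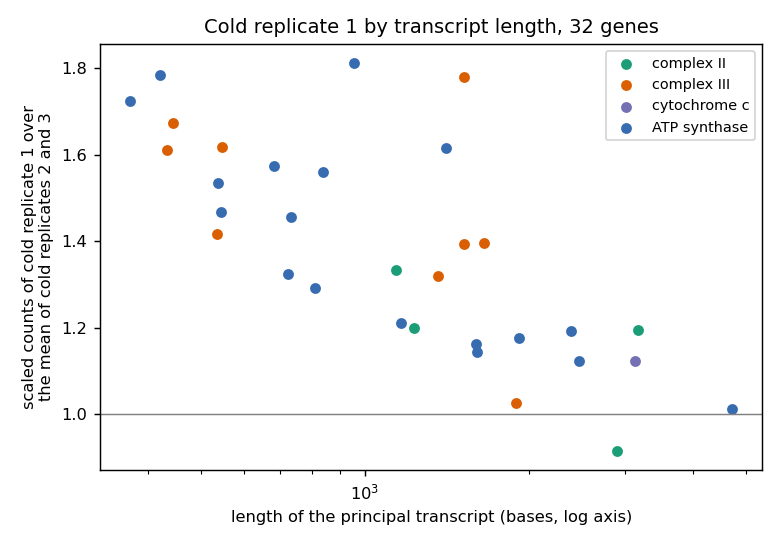
Scaled counts of cold replicate 1 over the mean of cold replicates 2 and 3 against the length of the principal transcript (log axis), 1 point for each of the 32 genes, coloured by complex. The points fall from up to 1.81 in short transcripts to 0.915 in Sdha, and the grey line marks a ratio of 1.

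The other complexes of the chain gave similar counts. Of 38 nuclear genes with complex I subunit names 34 rose and 0 fell, at a median log2 fold change of 1.30, and of 16 tested genes with complex IV subunit names 13 rose and 0 fell, with a median of 1.32. These 2 complexes stand beside medians of 1.47 for complex II, 1.67 for complex III and 1.00 for the ATP synthase, and differences between the medians were not tested.

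Of 10 tested assembly factors for complexes II and III and the ATP synthase, 4 rose and 0 fell, and their median was 0.58 on the log2 scale. The 4 were Atpaf2, which helps to assemble the F1 head (1.31), Uqcc1 (0.97) and Lyrm7 (0.96) for complex III, the latter needed to insert the Rieske protein, and Ttc19 (0.60), which clears its fragments. Sdhaf1, Sdhaf2, Uqcc2, Bcs1l, Atpaf1 and Tmem70 did not pass, with log2 fold changes from -0.11 to 0.66. After median centring 8 of the 10 were called higher.

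Among 8 tested regulators of mitochondrial gene expression, 3 rose, namely the coactivators Ppargc1a (1.79) and Ppargc1b (1.67) and the nuclear receptor Esrra (1.20). Of all genes tested, 6.25% were called higher. Of the 10 regulators listed, Esrrb and Esrrg did not pass the filter on low values and were not tested. Esrrg had 62.8 to 203.6 scaled counts in the cold and 16.3 to 27.1 at thermoneutrality, and Esrrb 24.0 to 30.1 and 4.98 to 13.3. The transcription factors Nrf1 (-0.78), Gabpb1 (-1.46) and Yy1 (-0.72) fell, 3 of 8 where 35.2% of all genes fell, and none of these 3 was called lower after median centring. Gabpa (0.31) and Tfam (0.26), which acts in the mitochondrion on its genome, did not pass. Both were called higher after median centring, at 0.85 and 0.79, so that 5 of the 8 then rose and 0 fell, beside 10.3% of all genes called higher.

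The mitochondrial genome encodes 1 subunit of complex III and others of the ATP synthase. Its complex III gene mt-Cytb was listed at 0 in every cold sample and at 327559, 374442 and 400668 scaled counts in the thermoneutral samples, and mt-Atp6 and mt-Atp8 were listed at 0 in all 6. Values of 0 for genes that every such cell uses do not read as levels, and no fold is given.

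**Figure D5:**
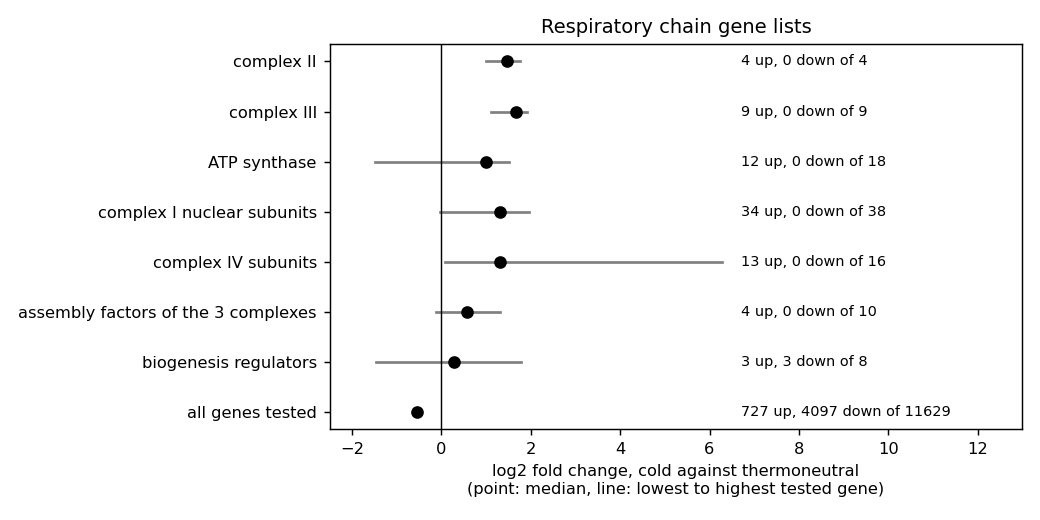
Median log2 fold change (point) and range from the lowest to the highest tested gene (line) for the 3 complexes, for complexes I and IV, for assembly factors and regulators, and the median alone for all genes tested, with the number of genes called higher and lower of those tested. Complex III has the highest median of these lists (1.67), and all genes tested lie at -0.54.

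Promoters were read because the 32 genes mostly moved together and are known targets of shared transcription factors. RefSeq windows of 300 bases on GRCm38.p6, from 250 bases before the start of transcription to shortly after it, matched 26 of the 32 genes, and the windows of Uqcrb, Uqcrq, Uqcrc2, Cyc1, Sdhc and Atp5a1 were not used here. Atp5d, Atp5j, Atp5c1 and Atp5sl had 2 windows each. A gene was counted for a motif when any of its windows matched, while the share over all is by window. The core motif of NRF1, GCGCATGC on either strand, was found in 7 of the 26 (26.9%), beside 2.71% of all 32851 windows. The 7 were Cycs, Sdhb, Uqcrc1, Uqcr11, Atp5l, Atp5k and Atp5g2. The core of the ETS family, to which GABP belongs, CCGGAAG, was found in 9 of 26 (34.6%, against 8.86% of all windows), and that of YY1, AAGATGGC, in 4 of 26 (15.4%, against 2.75%). The extended response motif of the ERR receptors, TCAAGGTCA, was found in 2 of 26, Sdhd and Atp5g3 (7.69%, against 0.42%), and the cAMP response element TGACGTCA in 2 of 26, Cycs and Uqcrfs1 (7.69%, against 1.79%). None of these motifs was found in the windows of Sdha, Uqcr10, Atp5b, Atp5c1, Atp5d, Atp5o, Atp5s, Atp5g1 or Atpif1. Of these, Atp5s, Atp5g1 and Atpif1 did not pass and the others rose, where 26 of all 32 genes rose. Both Atp5d windows (chr10:80142025-80142324 and chr10:80142065-80142364) lie inside the GENCODE gene (chr10:80138632-80145818, plus strand), and may not be the promoter of its longer transcripts. The Atpif1 window (chr4:132535365-132535664) lies wholly upstream of the GENCODE gene (chr4:132530555-132533659, minus strand), and may not be the promoter of that transcript. A match describes the letters of the window and says nothing on binding in these samples.

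The 250 bases before the start are printed for 4 genes with the NRF1 core, of which Cycs, Sdhb and Atp5k rose and Atp5g2 did not pass. Capitals mark motif matches on either strand, and overlapping matches run together.
Cycs (chr6:50566570-50566819, minus strand): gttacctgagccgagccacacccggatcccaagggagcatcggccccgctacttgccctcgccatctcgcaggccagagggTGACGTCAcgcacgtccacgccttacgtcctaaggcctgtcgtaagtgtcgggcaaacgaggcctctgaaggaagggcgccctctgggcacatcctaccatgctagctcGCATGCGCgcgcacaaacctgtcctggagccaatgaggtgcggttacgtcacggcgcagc
Sdhb (chr4:140961021-140961270, plus strand): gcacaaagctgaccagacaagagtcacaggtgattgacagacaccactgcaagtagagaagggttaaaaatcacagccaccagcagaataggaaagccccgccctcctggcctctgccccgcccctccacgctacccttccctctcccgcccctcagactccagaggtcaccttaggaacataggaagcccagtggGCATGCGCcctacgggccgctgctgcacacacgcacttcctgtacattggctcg
Atp5k (chr5:108434400-108434649, minus strand): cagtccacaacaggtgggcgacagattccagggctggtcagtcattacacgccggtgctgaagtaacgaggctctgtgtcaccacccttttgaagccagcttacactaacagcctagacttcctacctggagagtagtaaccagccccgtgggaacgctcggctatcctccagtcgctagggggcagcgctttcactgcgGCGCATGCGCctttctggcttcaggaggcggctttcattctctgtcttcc
Atp5g2 (chr15:102671048-102671297, minus strand): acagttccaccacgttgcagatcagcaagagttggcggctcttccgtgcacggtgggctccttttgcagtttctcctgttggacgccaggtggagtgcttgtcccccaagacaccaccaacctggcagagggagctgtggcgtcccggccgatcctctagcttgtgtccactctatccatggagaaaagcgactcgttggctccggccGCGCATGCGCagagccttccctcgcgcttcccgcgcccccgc

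In Cycs, the gene with the largest change, the capitals nearer the start are the NRF1 core, with its first base at -60 from the start, and the others are the cAMP response element at -169. The NRF1 core lies at -54 in Sdhb, at -50 and -48 in Atp5k and at -42 and -40 in Atp5g2, and in the last pair of genes a palindrome holds the motif on both strands. The log2 fold changes of these printed genes were 2.45, 1.77, 1.33 and 0.44. In the other genes with the NRF1 core the distance differed, at -4 in Uqcr11, -240 in Atp5l, and 30 and 32 past the start in Uqcrc1. Their log2 fold changes were 1.11, 1.33 and 1.88. The Atp5g2 window (chr15:102670998-102671297) lies inside the GENCODE gene (chr15:102662864-102672352), so its distances hold for the RefSeq start only. The same limit applies to Sdhb and Atp5k, whose printed bases reach into the GENCODE genes (chr4:140961203-140979193 and chr5:108433244-108434448). There the Sdhb core lies inside the gene and the Atp5k core at its start.

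Near-identical copies could split reads in some of these genes. No 100-base window was shared with another annotated gene in 24 of the 32, and 8 shared some. Beside Atp5g2 and Cycs, these were Atp5l (61.4%), Atp5h (29.5%), Atp5o (21.2%), Uqcrb (15.8%), Atp5f1 (7.38%) and Atp5g1 (6.2%). The share for Atp5g1 is of a principal transcript of 4715 bases, with 285 windows shared with the copy Gm10039. In cold replicate 1 Atp5g1 had 496 scaled counts at 49.3 FPKM, while Atp5g3, of 723 bases, had 7630 at 609 FPKM. The length behind the Atp5g1 FPKM was thus far shorter than 4715 bases, and the share shared with copies may be much larger. The copy Gm10250 was listed at 33.7% to 40.2% of Atp5h and rose by 1.21 on the log2 scale, and Gm10221 was listed at 18.8% to 21.1% of Atp5l and rose by 1.42. Both moved as their parent genes did, at 1.13 and 1.33, and 11 of the 32 genes also overlap a gene on the other strand.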

How the data were processed

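RNA-seq of iWAT in 3 cold and 3 thermoneutral samples was used. The authors prepared TruSeq RNA v2 libraries and sequenced them on a NovaSeq, and describe TMM normalization to CPM after low counts were removed. Bowtie 0.12.2 and the builds mm8 and mm10 stand in the submitters' processing notes, with no role given. Whether counting used strand is not given in the sources used here.

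The deposited signal columns, headed as counts, hold fragment counts that the authors had divided by 1 size factor per sample. From 90.2% to 91.3% of low values (under 20) were whole multiples of the smallest step within 0.02, so whole reads were not recovered and count models were not run. The deposited FPKM values are counts per transcript length and library size as the authors made them. Table columns were matched to samples by initial and number. Columns of the authors' own comparisons were not used.

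Genes that reached 1 FPKM in 3 or more samples were kept, 1 row per symbol. Scaled counts, after adding a pseudocount of 1 and taking log2, were fitted with limma 3.58.1 (R 4.3.3, two-sided), and p-values were adjusted by Benjamini-Hochberg over all 11629 genes. Fold changes are on that scale, which understates low genes. Ratios within samples used FPKM and an exact permutation test (scipy 1.17.1). The limma step was tested on simulated data. Positions and principal transcripts come from GENCODE for GRCm38, and promoter windows from RefSeq for GRCm38.p6.

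Full values are given for the 4 Sdh genes, Cyc1, Cycs, the largest and smallest changes in complex III and the ATP synthase, the subunit c genes, Atpif1, Atp5b and each gene that did not pass, and the others by their changes. The set of symbols and the lists of pathways, markers and motifs were drawn up with earlier results of these data known. Depth limits the precision of genes with low values, and no interval covers more than the spread between samples. Alternatives covered the value type, pseudocount, filter, scaling, variance model, replicate block and samples left out.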

Additional observations from a re-analysis of the deposited data

How the results depend on the processing

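In 16 other settings, complexes II and III and Cycs kept their direction, and complex II had 4 genes higher in each. Leaving out 1 sample at a time gave 8 to 9 genes higher for complex III, 7 to 12 for the ATP synthase (7 without thermoneutral replicate 3), 19 to 25 of the 32 past an unadjusted p of 0.05 and a fold of 2, and a log2 fold change of 2.40 to 2.48 for Cycs. Without thermoneutral replicate 3, the genes Atp5d, Atp5h, Uqcr11, Atp5e, Atp5c1 and Atp5sl lost their calls, and without thermoneutral replicate 2 the same genes other than Atp5h did, in fits with fewer samples. Signs turned in 3 genes that did not pass in any setting. Atp5j was 0.49 after median centring, 0.16 after quantile normalization, and with single samples left out it ranged from -0.17 to 0.030 (0.0039 without cold replicate 2). Atp5g3 was 0.47 and 0.026 after these scalings and ranged from -0.19 to 0.0091 (0.0067 without cold replicate 2), and Atp5s was 0.30 and 0.41 after median centring and quantile normalization. The cause was not tested.

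Over all genes tested, 1202 were higher and 629 lower after median centring, against 727 and 4097, and 704 were lower after quantile normalization. With no filter 2703 were lower, and with an FPKM of at least 5 in all samples 2075. Without single samples, 375 to 932 were higher and 1067 to 5138 lower.

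Whether replicate numbers pair the samples could not be decided. Same-numbered samples had correlations of -0.004, 0.036 and 0.064 of their deviations, and the other pairs -0.057 to 0.011. Cold replicates 2 and 3 correlated best with their own number and cold replicate 1 did not, and values so small cannot exclude a pairing. With the replicate block, Atp5e did not pass (log2 fold change 0.86, adjusted p = 0.071) and no other call of the 32 changed. The planned edgeR and DESeq2 fits were not run, since the deposited counts are scaled. Low genes such as Atp5s (149 to 206 scaled counts) are limited by depth.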
